A study of Bos taurus with 16 samples.

Results

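The mRNAs of 42 named DNA repair genes were followed through bovine pre-implantation development. A gene counted as measured when a locus of the deposited table carried its name, and the locus with the highest mean was taken where a name had several. By this rule 41 of the 42 genes were found among 27393 loci, and ATM was not analysed here. The genes fall into 7 pathways: 11 in homologous recombination, 7 in break signalling (6 found), 5 in end joining, 3 in mismatch repair, 6 in nucleotide excision repair, 7 in base excision and single-strand break repair and 3 in the Fanconi anaemia pathway. The names RAD50 and MSH3 had a second locus without a read, and LIG3 had a second locus (XLOC_027672) with 366 reads next to the 6808 of the locus used (XLOC_027029).

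The samples were single Bos taurus oocytes and embryos that matured and developed in vivo, with 2 samples at each of 8 stages and 16 in all. The stages were the mature oocyte (MII oocyte, MII), the 2-, 4-, 8- and 16-cell embryo (2C, 4C, 8C and 16C), the early morula (EM), the compact morula (CM) and the blastocyst (BL). No treatment, genotype or breed separates the groups, and the labels do not tie samples to donors, so that every p-value measures the spread between these single oocytes and embryos. MII, 2C and 4C samples (6) lie before embryonic genome activation (EGA), and 8C, 16C, EM, CM and BL samples (10) lie after it.

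A cell repairs each kind of DNA lesion by its own route. Double-strand breaks are sensed by the MRE11A-RAD50-NBN (MRN) complex and by ATM and ATR, and are then sealed either directly by end joining or by copying an intact sister in homologous recombination. Mismatch repair corrects replication errors, base excision repair removes damaged bases, nucleotide excision repair cuts out bulky lesions and the Fanconi anaemia pathway opens cross-links between strands. A bovine embryo begins its first cleavages with mRNAs and proteins stored by the oocyte, because its own genome is largely silent until EGA.

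Between 607672 and 3379426 reads per sample were recovered from the deposited values, which are read counts divided by a size factor of each sample. Levels are given as CPM (reads of a locus per 1000000 reads of the sample). They are not divided by gene length, so that a gene can be compared between samples but not with another gene. A floor of 3 reads corresponded to 0.888 to 4.94 CPM, and floors and counting intervals hold for counting error alone, because copies of 1 amplified molecule were counted as separate reads. The locus with most reads took 7.44% to 27.0% of the reads in the 6 samples before EGA, highest in 2C replicate 2, and 1.54% to 5.90% in the 10 after it. This lowers the CPM of all other loci more before than after EGA. The summed oocyte markers (9 of 10 with reads, BMP15 at 0) ranged from 3194 to 10548 CPM before EGA and from 5.89 to 1513 CPM after it, the last in 8C replicate 2. Most of the oocyte sum before EGA was H1FOO (mean 5119 of 6079 CPM). Trophectoderm markers (7 of 7 with reads, CDX2 with 1) ranged from 19.9 to 50.6 CPM before and from 2.86 to 1390 CPM after EGA, and the 4 inner cell mass markers from 124 to 301 and from 2821 to 6049 CPM. POU5F1 made up most of the inner cell mass sum (mean 228 of 232 CPM before and 3681 of 3947 CPM after EGA). Of 12 cumulus and granulosa markers 9 had reads, with sums of 575 to 2008 CPM before and 393 to 877 CPM after EGA, and most of the sum before EGA was STAR (mean 1164 of 1371 CPM). FOXL2, AMH and INHA were at 0 in all samples, and TNFAIP6 was at 0 in the 6 earlier ones. STAR, HAS2, CYP19A1, PTGS2, FSHR, COL1A2 and PTX3 (12 reads in total) had reads in all 6 earlier samples, and LHCGR in 5. PTGS2 was highest in the blastocysts (mean 246 CPM).

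Across EGA some DNA repair genes rose, some fell and 13 of 39 passed in neither direction, in shares near those of all loci. Of the 39 genes with enough reads for the model, 12 were higher after EGA (30.8%, against 37.9% of all 9670 loci tested) and 14 were lower (35.9%, against 32.1%). The log2 change is the mean of the 5 later stages minus the mean of the 3 earlier ones, on log2(deposited value + 1), tested by limma with Benjamini-Hochberg adjustment over all loci. This scale understates the change of genes with few reads. The median log2 change was -0.16 for the repair genes and 0.23 for all loci. Scaling by total reads moved the median of all loci to 0.62 and TMM factors moved it to 0.33. The counts were also 12 and 14 without 8C replicate 2, and without 2C replicate 2 they were 11 and 14. Values are relative to the other mRNAs of the same embryo, and fewer cells of a type could not be told apart from less RNA per cell.

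**Figure D1:**
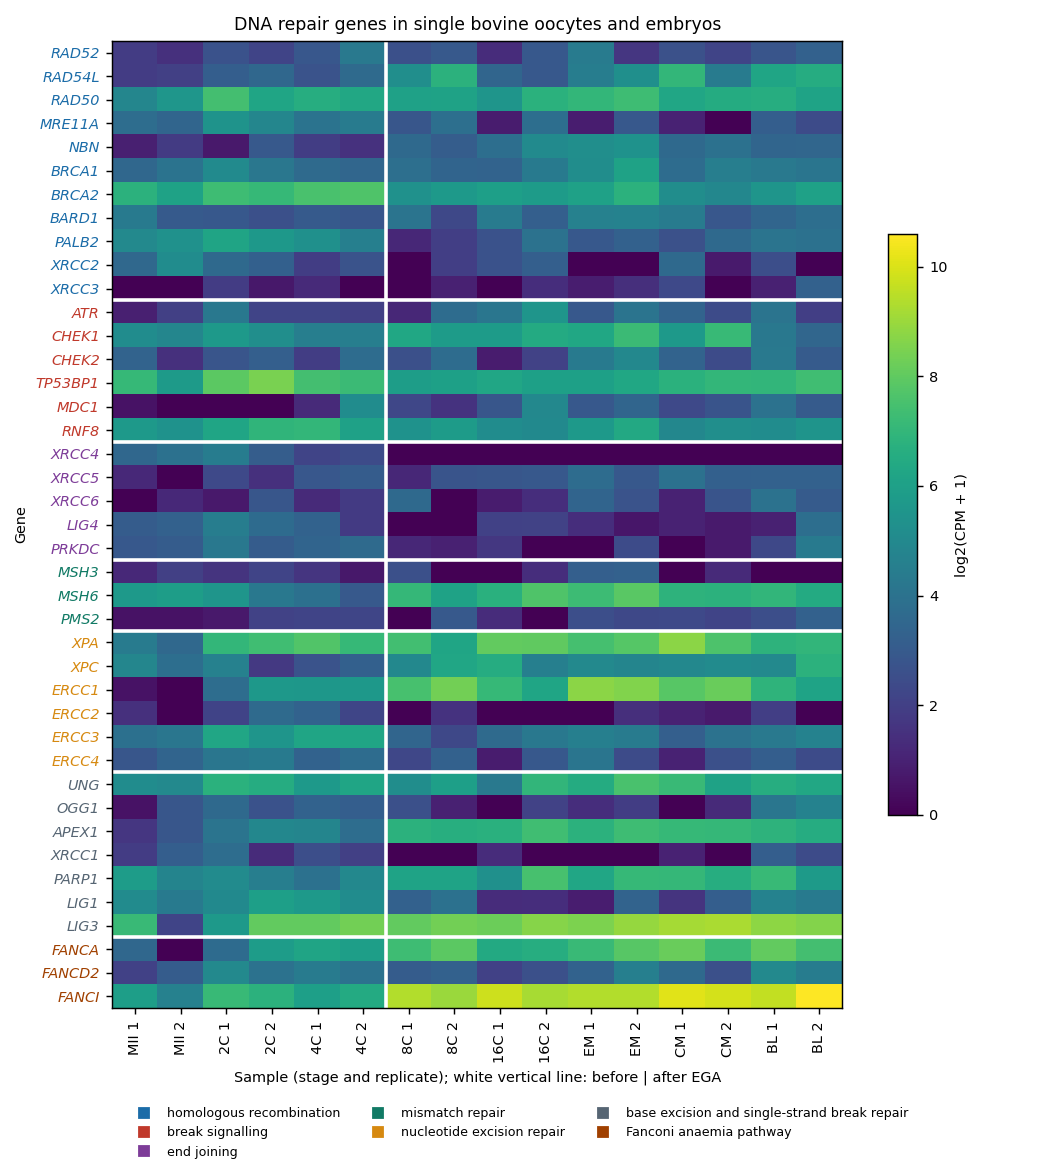
Levels of the 41 DNA repair genes found (rows, grouped and coloured by pathway) in the 16 samples (columns), as log2(CPM + 1) on the colour bar. The white vertical line separates the 6 samples before from the 10 after genome activation; the FANCI row brightens after it and the XRCC4 row is at 0 in all 10 later samples.

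The samples before and after EGA did not overlap for 8 of the called genes. ERCC1, FANCI, FANCA, APEX1, NBN and MSH6 were higher in every later sample than in any earlier one (15.4% of the 39, against 14.1% of all loci), and XRCC4 and PALB2 were lower (5.13%, against 8.68%). On the deposited scale, a comparison added after seeing the data, MSH6 and FANCA overlapped, and the later samples of MRE11A, BRCA2, RNF8, ERCC3 and LIG1 were all lower than the earlier ones. That gave 4 genes higher and 7 lower, where 12.4% and 12.5% of all loci do not overlap.

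**Figure D2:**
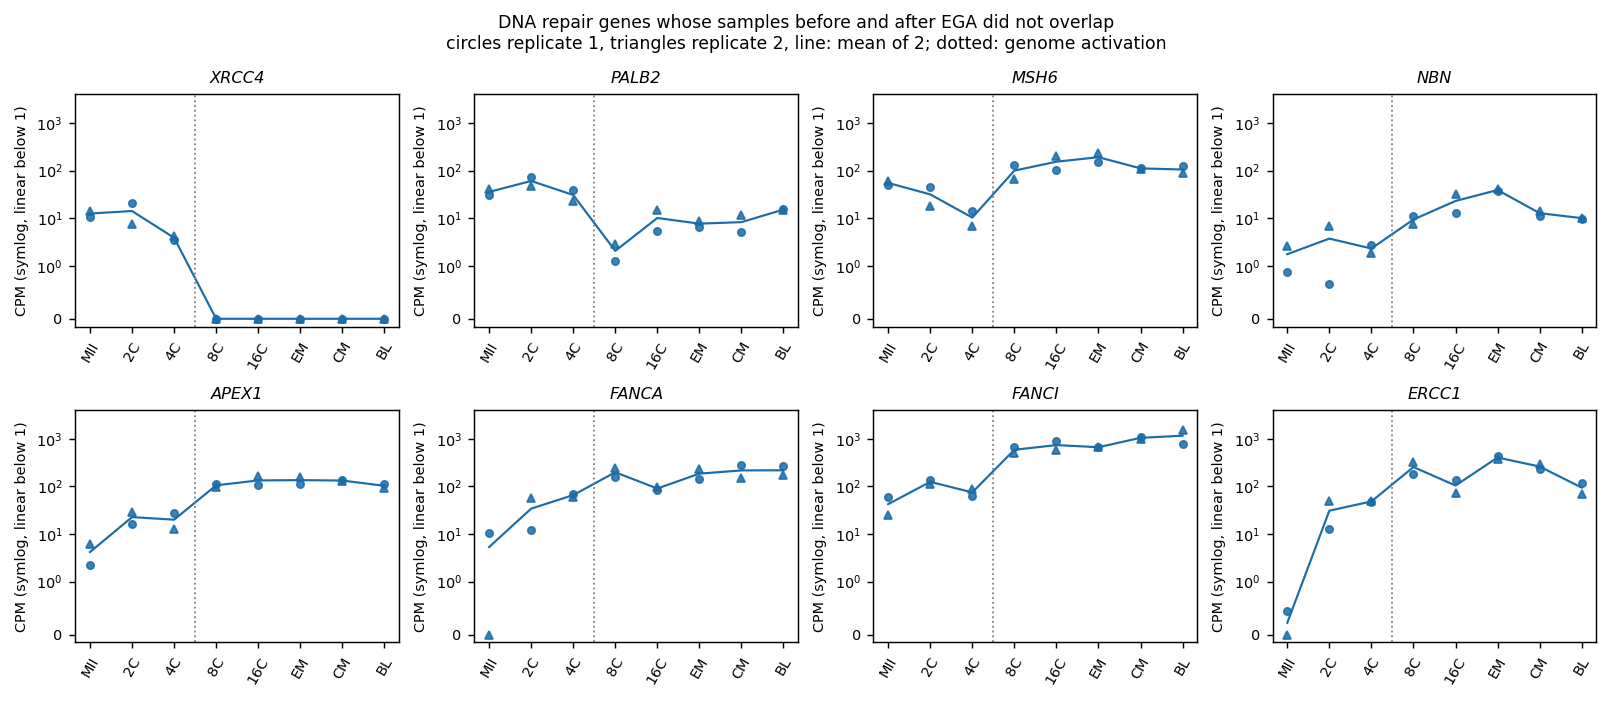
CPM by stage (logarithmic above 1, linear below) of the 8 DNA repair genes whose samples before and after genome activation did not overlap in CPM. Circles are replicate 1, triangles replicate 2, lines join stage means and the dotted line marks genome activation; FANCI lies at 24.5 to 138 CPM before it and at 505 to 1543 CPM after it.

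Counts by pathway rest on 2 to 10 tested genes each and are to be read against the 37.9% higher and 32.1% lower of all loci. Nucleotide excision repair had 3 of 6 genes higher and 3 lower after EGA. ERCC1 (XLOC_024820) encodes the partner that ERCC4 needs to cut the damaged strand. It ranged from 0 to 49.1 CPM before EGA (median 30.3) and from 70.5 to 428 CPM after it (median 207). Its lowest samples were the 2 MII oocytes, with 1 and 0 reads, and its highest the 2 early morulae, at 428 and 379 CPM. The log2 change was 3.87 ± 0.35 (SE; adjusted p = 1.74e-07). XPA and XPC, which verify and recognise the lesion, rose by 0.85 ± 0.29 (adjusted p = 0.0163) and 1.45 ± 0.50 (adjusted p = 0.0169). Both calls were lost without single libraries. XPA had an adjusted p of 0.0586 without 4C replicate 2 and of 0.128 with 2 groups and no stages in the model, and XPC had one of 0.0517 without MII replicate 2 and of 0.0834, with a log2 change of 0.96, without 2C replicate 2. XPA was already at 130 to 208 CPM in 2C and 4C embryos, within its later range of 74.1 to 430 CPM.

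The other 3 genes of this pathway went the other way. ERCC4, the nuclease subunit, ranged from 6.20 to 19.5 CPM before and from 0.773 to 16.3 CPM after EGA, a log2 change of -1.61 ± 0.47 (adjusted p = 0.00616). ERCC3 and ERCC2, the helicases of the transcription factor TFIIH, fell by 1.99 ± 0.33 (adjusted p = 7.47e-05) and 1.77 ± 0.50 (adjusted p = 0.00547). ERCC3 ranged from 14.2 CPM in an MII oocyte to 75.9 CPM in a 2C embryo before EGA and from 3.85 to 25.0 CPM after it, so that the MII oocytes overlapped with later samples. ERCC2 rested on 68 reads before and 10 after EGA, and it was at 0 in 5 of the 10 later samples.

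In the Fanconi anaemia pathway 2 of 3 genes rose (37.9% of all loci did) and none fell (32.1% of all loci did; limma, 0 lower also at an unadjusted p under 0.05, with edgeR and with DESeq2). FANCI (XLOC_035009), which with FANCD2 forms the clamp that closes on damaged DNA, ranged from 24.5 to 138 CPM before EGA (median 74.8) and from 505 to 1543 CPM after it (median 723). Every stage after EGA lay far above the earlier ones. The 2 blastocysts, at 777 and 1543 CPM, differed by more CPM than the 2 samples of any other stage, while as a ratio the MII oocytes differed more. Its log2 change was 3.0 ± 0.29 (adjusted p = 3.88e-07). FANCA (XLOC_024531), a subunit of the core complex that marks the clamp with ubiquitin, ranged from 0 to 70.8 CPM before (median 34.1) and from 85 to 284 CPM after EGA (median 163), a log2 change of 2.96 ± 0.53 (adjusted p = 0.00015). The MII oocytes differed, with 24 reads in one and 0 in the other. FANCD2, the partner of FANCI in the clamp, had ranges of 3.1 to 30.6 and 3.09 to 30.4 CPM, and its log2 change of -0.75 ± 0.36 did not pass (adjusted p = 0.0754), except without MII replicate 1 (-0.97, adjusted p = 0.0332).

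Base excision and single-strand break repair had 3 of 7 genes higher and 2 lower. APEX1 (XLOC_004139), the endonuclease that nicks DNA at a lost base, ranged from 2.22 to 29.3 CPM before EGA (median 14.4) and from 92.5 to 161 CPM after it (median 112). Its later samples were close together and the MII oocytes were lowest, at 2.22 and 6.14 CPM. The log2 change was 2.82 ± 0.31 (adjusted p = 1.09e-06). PARP1, which senses strand breaks, rose by 1.17 ± 0.33 (adjusted p = 0.0056), from a median of 28.2 to a median of 85.4 CPM, with overlap. LIG3, which seals single-strand breaks, had a log2 change of 1.61 ± 0.56 (adjusted p = 0.0182). The MII oocytes differed for LIG3, with 328 reads in replicate 1 and 8 in replicate 2. Its log2 change was 2.45 without MII replicate 1, and its call was lost without MII replicate 2 (log2 change 0.78, adjusted p = 0.0651), without 2C replicate 1 (adjusted p = 0.0882), with edgeR (adjusted p = 0.068) and with DESeq2 (adjusted p = 0.0857).

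XRCC1, the scaffold that binds LIG3 and PARP1, fell by 2.12 ± 0.48 (adjusted p = 0.00101). It had 60 reads before EGA, was at 0 in 6 of the 10 later samples and had 8 and 3 reads in the blastocysts. LIG1, the ligase of DNA replication, fell by 2.91 ± 0.41 (adjusted p = 1.66e-05), from 19.3 to 62.1 CPM before EGA to 0.817 to 24.6 CPM after it. Its 2 blastocysts, at 24.6 and 19.1 CPM, were the highest of the later samples. OGG1, which removes oxidised guanine, was highest in the blastocysts, at 16.7 and 25.0 CPM, and lowest in the compact morulae, at 0 and 1.43 CPM. For OGG1 neither test was firm. The effect of stage as a whole had an adjusted p of 0.0435, and it was lost with TMM factors (0.056), a pseudocount of 0.5 (0.0633), no filter (0.0904), edgeR (0.0974) and DESeq2 (0.0779) and without any 1 of the 2C, 4C, EM or BL samples, 16C replicate 1 or CM replicate 1 (0.0606 to 0.14). Its change across EGA, -1.19 ± 0.55, had an adjusted p of 0.0629, and it passed with DESeq2 (0.0473) and without MII replicate 1 (0.012), 8C replicate 1 (0.0311), 16C replicate 2 (0.0353) or CM replicate 2 (0.0475). UNG, which removes uracil, passed none of the 5 tests.

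Of the mismatch repair genes MSH6 and MSH3 could be tested. MSH6 (XLOC_007173), which finds single mismatches, ranged from 6.76 to 59.2 CPM before EGA (median 31.7) and from 67.3 to 232 CPM after it (median 118). Within the earlier samples it was highest in the MII oocytes, at 51.0 and 59.2 CPM, and lowest in the 4C embryos, at 13.9 and 6.76 CPM. The log2 change across EGA was 1.80 ± 0.30 (adjusted p = 8.88e-05). MSH3, which takes the place of MSH6 at larger loops, had 29 reads before and 33 after EGA, 26 of the latter in the early morulae. Its log2 change of -0.80 ± 0.50 did not pass (adjusted p = 0.164), except without 8C replicate 1 (-1.10, adjusted p = 0.0289). PMS2, which nicks the strand to be replaced, stayed at or below 8.81 CPM and had too few reads for the model.

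Homologous recombination had 2 of 10 tested genes higher and 4 lower after EGA, and the members of the MRN complex differed in direction. NBN (XLOC_015045), the subunit that recruits ATM, ranged from 0.666 to 6.81 CPM before EGA (median 2.24) and from 7.70 to 41.5 CPM after it (median 12.2). The early morulae were highest, at 36.8 and 41.5 CPM. Its log2 change was 2.12 ± 0.43 (adjusted p = 0.000425). MRE11A, the nuclease, fell by 2.68 ± 0.47 (adjusted p = 0.000116), from a range of 10.1 to 42.6 CPM to a range of 0 to 13.5 CPM, with 1 and 0 reads in the compact morulae. RAD50, which tethers the broken ends, had ranges of 27.9 to 172 and 44.8 to 157 CPM and a log2 change of -0.22 ± 0.28 (adjusted p = 0.501).

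Among the mediators of strand exchange the direction also varied. PALB2 (XLOC_043404), which links BRCA1 to BRCA2, ranged from 22.7 to 72.5 CPM before EGA (median 39.6) and from 1.24 to 15.7 CPM after it (median 7.70), with the lowest values in the 8C embryos. The log2 change was -2.82 ± 0.34 (adjusted p = 3.35e-06). BRCA2, which loads the recombinase onto broken ends, fell by 1.82 ± 0.25 (adjusted p = 1.11e-05), from a median of 145 to a median of 53.9 CPM, and its highest stage was the 4C embryo, at 186 and 203 CPM. XRCC2, which assists strand exchange, fell by 2.37 ± 0.56 (adjusted p = 0.00155) and was at 0 in 4 of the 10 later samples. RAD54L, a motor protein of strand exchange, rose by 2.02 ± 0.40 (adjusted p = 0.000333), with 2.66 to 11.7 CPM in the earlier samples and 6.58 to 127 CPM in the later ones. Its later stages were uneven, with 30 and 115 reads in 8C embryos, 13 and 4 in 16C embryos and 124 and 28 in compact morulae. BRCA1, its partner BARD1 and RAD52 passed no test, and XRCC3, with 25 reads in all samples, had too few for the model.

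**Figure D3:**
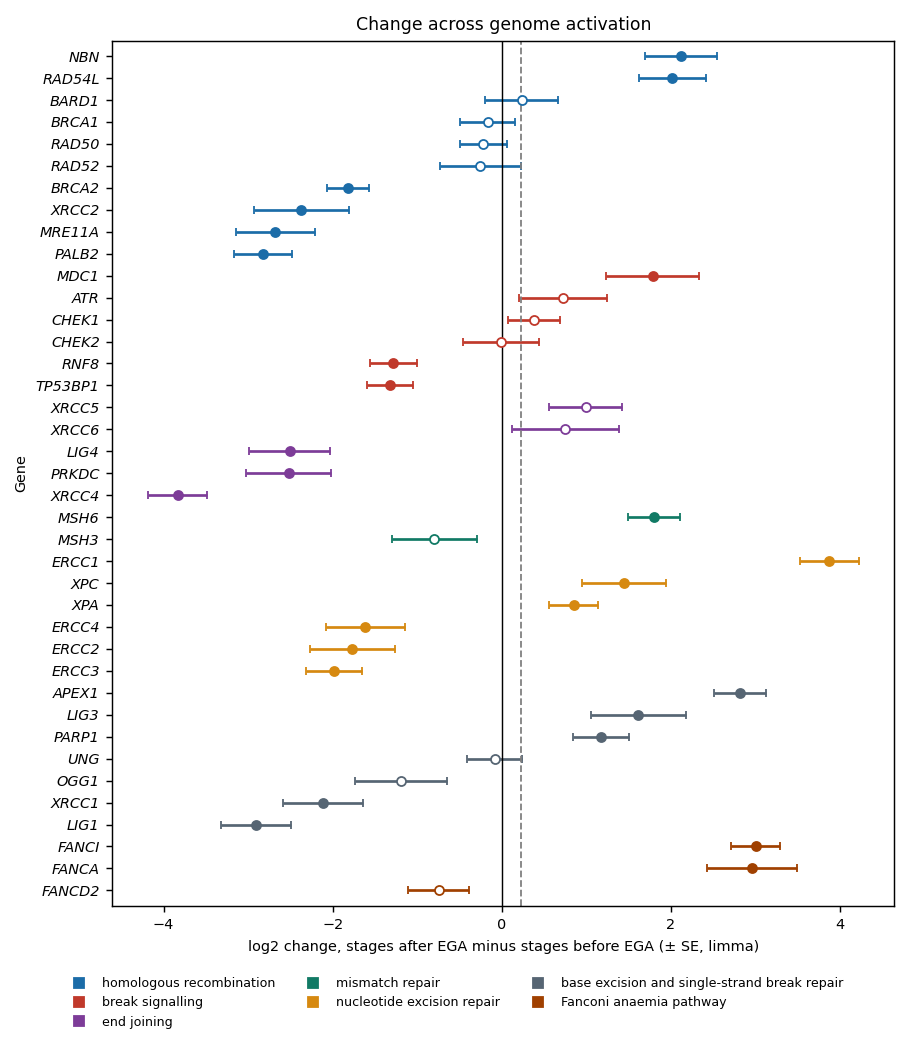
Log2 change after minus before genome activation (points; bars are ± SE from limma) of the 39 tested DNA repair genes, coloured by pathway. Filled points passed the adjusted threshold of 0.05 (12 higher, 14 lower), and the dashed line is the median of all loci, 0.23.

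In break signalling 1 of 6 genes was higher and 2 were lower. TP53BP1, which protects broken ends from resection, fell by 1.32 ± 0.27 (adjusted p = 0.000468), and its highest samples were the 2C embryos, at 243 and 351 CPM. RNF8, the ubiquitin ligase that prepares chromatin at breaks, fell by 1.28 ± 0.28 (adjusted p = 0.000755), from a median of 69.8 to a median of 38.6 CPM. MDC1, the scaffold that carries RNF8 to the break, had a log2 change of 1.78 ± 0.55 (adjusted p = 0.00957). It had 59 reads before EGA, 56 of them in 4C replicate 2, and reads in all 10 later samples. The MDC1 call was lost without 4C replicate 1 (log2 change 1.11, adjusted p = 0.0504) and with a pseudocount of 5 (adjusted p = 0.0853). The kinases ATR and CHEK2 passed no test, and CHEK1, whose change across EGA passed with total reads alone among the alternatives (0.85, adjusted p = 0.0255), passed for the effect of stage (adjusted p = 0.00821, and 0.0615 without BL replicate 2) and between blastocysts and 8C embryos.

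End joining had 3 of 5 genes lower (32.1% of all loci were) and none higher (37.9% of all loci were; limma, 1 was higher at an unadjusted p under 0.05, and none with edgeR or DESeq2, adjusted or not). XRCC5 was that gene. XRCC4 (XLOC_063472), the scaffold of the ligase that joins the ends, ranged from 3.47 to 20.6 CPM before EGA (median 9.16) and had 126 reads there. It had reads in all 6 earlier samples and none in any of the 10 later ones. Against a floor of 3 reads over the later group the level was at least 36.5-fold lower, and the fitted log2 change of -3.83 ± 0.35 (adjusted p = 1.97e-07) depends on the pseudocount. LIG4, the ligase that XRCC4 holds, fell by 2.51 ± 0.48 (adjusted p = 0.000246), from 127 reads to 21. PRKDC, the catalytic subunit of the DNA-dependent kinase, fell by 2.52 ± 0.50 (adjusted p = 0.000366), from 6.65 to 18.0 CPM before EGA to 0 to 19.1 CPM after it. The highest later sample of LIG4 and of PRKDC was BL replicate 2, with 9 and 13 reads, where BL replicate 1 had 1 and 4. XRCC5 and XRCC6, the Ku subunits that hold the ends, had log2 changes of 0.99 ± 0.43 (adjusted p = 0.0509) and 0.75 ± 0.63 (adjusted p = 0.297). XRCC5 passed as higher with TMM factors (0.0367) and total reads (0.0152) as scaling and without MII replicate 1 (0.0184), 2C replicate 1 (0.049), 8C replicate 1 (0.0223) or EM replicate 2 (0.043).

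The 14 genes that fell did so while the summed oocyte markers went from at least 3194 to at most 1513 CPM. The part of the stored oocyte mRNAs in these falls was not tested. The inner cell mass marker sum, most of it POU5F1, was higher in every later sample than in any earlier one. Of its genes POU5F1 and GATA6 did not overlap between the periods, while SOX2 and NANOG did. The trophectoderm sum passed its earlier range in 16C replicate 2 (309 CPM), CM replicate 1 (120 CPM) and the blastocysts (1390 and 1290 CPM) and lay below that range in 4 later samples. The part of either in the rises was not tested.

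Partners in a complex could be compared within a sample as the log2 ratio of their deposited values + 1, a description chosen after the values were seen, without a test. The ratio of NBN to MRE11A went from -2.84 ± 1.16 (SD, n = 6) before EGA to 1.96 ± 1.71 (SD, n = 10) after it, without overlap. For ERCC1 to ERCC4 it went from -0.39 ± 2.81 to 5.10 ± 1.23, and for FANCI to FANCD2 from 2.47 ± 0.92 to 6.21 ± 1.01, both without overlap. In each of these 3 pairs every later sample had a higher ratio than any earlier one. The ratio of LIG3 to XRCC1 (4.20 ± 3.12 and 7.94 ± 1.24) overlapped between the periods. So did BRCA2 to PALB2 (1.75 ± 0.85 and 2.75 ± 1.05), BRCA1 to BARD1 (0.91 ± 1.01 and 0.51 ± 0.92) and XRCC5 to XRCC6 (0.52 ± 1.78 and 0.76 ± 1.73).

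**Figure D4:**
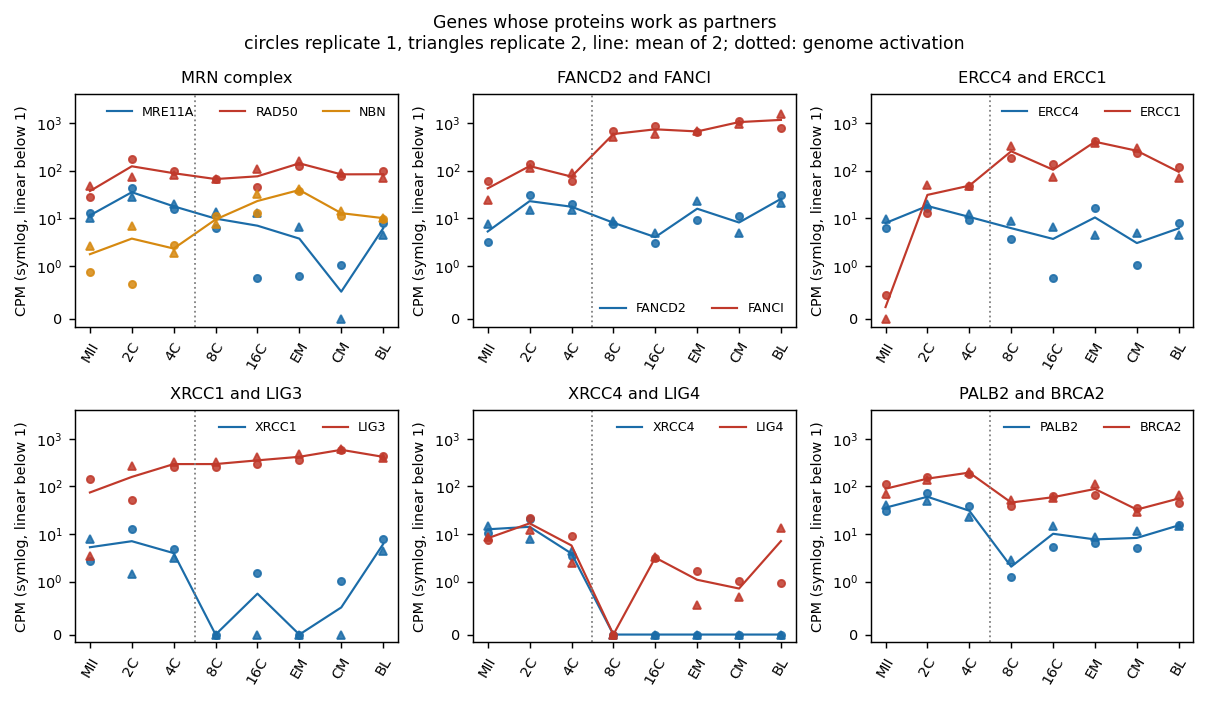
CPM by stage (logarithmic above 1, linear below) of DNA repair genes whose proteins work together, for 6 complexes. Circles are replicate 1, triangles replicate 2, lines join stage means and the dotted line marks genome activation; NBN lies higher in every later sample than in any earlier one, and XRCC4 is at 0 in all later ones.

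Single steps were read from 2 samples against 2, with the spread estimated over all 8 stages. Between MII oocytes and 4C embryos 3 genes rose (7.69%, against 6.48% of all loci) and 1 fell (2.56%, against 2.19%); with total reads as the scaling the split was 6 and 1. Of all loci 839 were called in this step, and 96 without MII replicate 2, 29 without 4C replicate 1 and 38 without 4C replicate 2. ERCC1 rose from 1 and 0 reads to 69 and 79, with 219 times more of the reads in 4C (95% exact counting interval 38.7 to 8707) and a log2 change of 5.55 ± 0.68 (adjusted p = 0.00111). XPA rose from 20.4 and 11.0 CPM to 208 and 136 CPM (2.69 ± 0.56, adjusted p = 0.0131). FANCA rose from 10.6 and 0 CPM to 70.8 and 60.2 CPM (4.19 ± 1.03, adjusted p = 0.0236), and its log2 change was 6.45 without MII replicate 1 and 1.92 without MII replicate 2. MSH6 fell by 3.16 ± 0.59 (adjusted p = 0.00925), from 51.0 and 59.2 to 13.9 and 6.76 CPM. The XPA, FANCA and MSH6 calls were lost without MII replicate 2, 4C replicate 1 or 4C replicate 2, at adjusted p between 0.0511 for MSH6 and 0.222 for FANCA, while the ERCC1 call was kept. The FANCA call was also lost with edgeR (adjusted p = 0.0806). In the limma fit of the 2 compared stages alone, which called 176 of 9670 loci, none of the 4 calls was kept. That of ERCC1 had an adjusted p of 0.0708 there.

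Between 4C and 8C embryos 6 genes rose (15.4%, against 17.7% of all loci) and 7 fell (17.9%, against 19.1%). The median log2 change was -0.61 for the repair genes and -0.08 for all loci. With TMM factors the split was 8 and 6, and with total reads 6 and 6. MSH6 rose from 13.9 and 6.76 to 132 and 67.3 CPM (3.17 ± 0.59, adjusted p = 0.00102), after its fall between the oocyte and the 4C embryo. FANCI rose from 61.8 and 87.9 to 667 and 505 CPM (2.96 ± 0.57, adjusted p = 0.00126). RAD54L rose from 5.56 and 11.7 to 37.1 and 111 CPM (2.87 ± 0.77, adjusted p = 0.00962), and XPC from 5.56 and 8.60 to 29.7 and 75.0 CPM (2.64 ± 0.96, adjusted p = 0.0427). APEX1 (2.43 ± 0.59) and ERCC1 (2.32 ± 0.68) were the other 2.

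PALB2 fell from 38.9 and 22.7 CPM in 4C to 1.24 and 2.89 CPM in 8C embryos, a log2 change of -3.52 ± 0.66 (adjusted p = 0.0011). ERCC3 fell from 74.3 and 75.0 to 9.90 and 3.85 CPM (-3.43 ± 0.64, adjusted p = 0.00106). LIG4 went from 13 and 4 reads to 0 and 0, at least 3.41-fold lower (adjusted p = 0.0235), and PRKDC from 14 and 19 reads to 1 and 1, a 4C level 9.94 times the 8C level (95% exact counting interval 2.54 to 85.5; adjusted p = 0.045). XRCC4 and XRCC1 each went from 12 reads to 0, at least 2.41-fold lower, and BRCA2 fell by 2.09 ± 0.48. The calls of MSH6, FANCI, PALB2, ERCC3 and BRCA2 did not rest on any 1 library. In the limma fit of the 2 compared stages alone, those of MSH6 (adjusted p = 0.0622), PALB2 (0.0527) and ERCC3 (0.0542) were lost. That fit also ended the calls of APEX1 (0.0624), XPC (0.0675), PRKDC (0.0675), LIG4 (0.0717) and RAD54L (0.0755), and it called 1297 of 9670 loci. Without 4C replicate 1 the calls of RAD54L, XPC, ERCC1, LIG4, PRKDC and XRCC1 were lost, at adjusted p of 0.0718 (ERCC1) to 0.196 (LIG4), and without 4C replicate 2 those of APEX1 (0.0728), ERCC1 (0.0728), XPC (0.104), XRCC4 (0.0563), XRCC1 (0.0938) and PRKDC (0.164). Without 8C replicate 1 those of XPC (0.0642), LIG4 (0.0718), PRKDC (0.0929) and XRCC1 (0.102) were lost, and without 8C replicate 2 those of RAD54L (0.0639), ERCC1 (0.0653), XPC (0.172), LIG4 (0.0535), PRKDC (0.116) and XRCC1 (0.0797). Leaving out a library of another stage also ended the XPC call (each EM or CM sample; 0.0536 to 0.0545) and the PRKDC call (each MII, 2C or CM sample; 0.0502 to 0.0549). PRKDC was lost as well with TMM factors (0.0608), total reads (0.064), a pseudocount of 0.5 (0.0762), no filter (0.0829), the replicate block (0.0521), edgeR (0.108) and DESeq2 (0.117). XRCC4 and XRCC1 were lost with edgeR (0.0745 and 0.105), DESeq2 (0.169 and 0.141) and a pseudocount of 5 (0.0541 and 0.119), XRCC1 and XPC with no filter (0.0756 and 0.0821) and LIG4 with a pseudocount of 5 (0.0743). Of all loci 3560 were called in this step, and 2042 without 4C replicate 1 and 1993 without 4C replicate 2.

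From the 8C embryo to the blastocyst 1 gene rose (2.56%, against 6.44% of all loci) and 1 fell (2.56%, against 3.63%); with total reads 2 rose and 1 fell. Of all loci 974 were called in this step, and 629 without 8C replicate 2, 470 without BL replicate 1 and 235 without BL replicate 2. CHEK1, the checkpoint kinase that acts under ATR, fell from 79.2 and 55.8 to 17.7 and 10.3 CPM (-2.54 ± 0.60, adjusted p = 0.0154). Its stage means had been highest in the early and compact morulae, where single samples lay between 51.3 and 148 CPM. PALB2 went from 1.24 and 2.89 to 15.7 and 14.7 CPM (2.27 ± 0.66, adjusted p = 0.0402). The CHEK1 call was lost without 8C replicate 1 (adjusted p = 0.0556) or BL replicate 2 (adjusted p = 0.135). The PALB2 call was lost without any 1 of the 4C, 8C, EM or BL samples (adjusted p from 0.0558 to 0.168) and with edgeR and DESeq2.

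**Figure D5:**
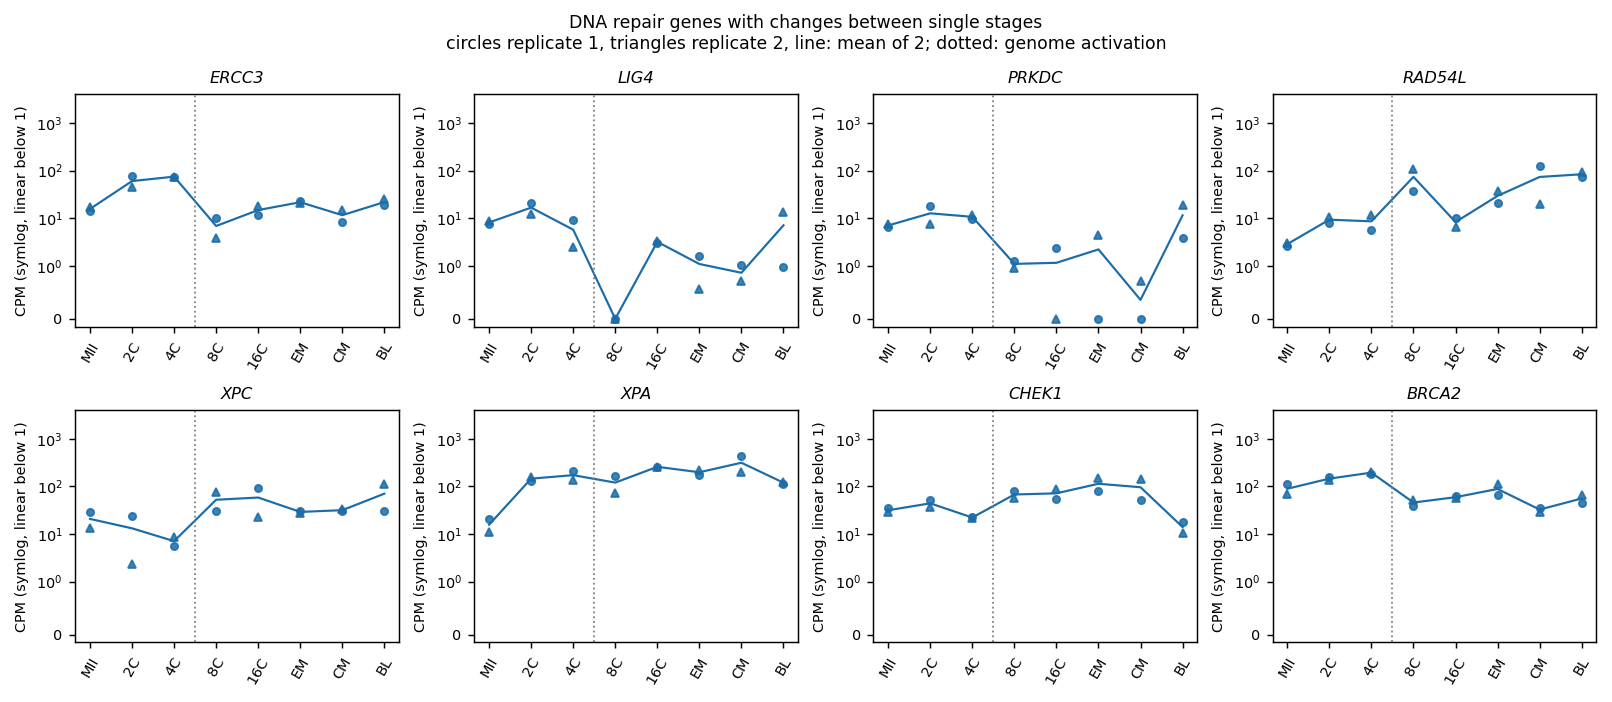
CPM by stage (logarithmic above 1, linear below) of 8 DNA repair genes that changed between single stages. Circles are replicate 1, triangles replicate 2, lines join stage means and the dotted line marks genome activation; LIG4 is at 0 in both 8C embryos, and CHEK1 in both blastocysts (17.7 and 10.3 CPM) lies below its other samples after activation.

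The effect of stage as a whole passed for 23 of the 39 genes (59.0%, against 66.7% of all loci). Passing none of the 5 tests in the model were ATR, BARD1, BRCA1, CHEK2, FANCD2, MSH3, RAD50, RAD52, UNG, XRCC5 and XRCC6. The stage means of RAD50 lay between 37.2 ± 13.1 (SD, n = 2) in MII oocytes and 142 ± 21.6 in early morulae. UNG lay between 32.4 ± 3.06 and 138 ± 65.7 CPM at the same stages, and BRCA1 between 11.1 ± 0.96 in 4C embryos and 52.0 ± 22.7 CPM in early morulae. A p that misses the threshold does not show that these 11 levels were steady.

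At least 3 reads in both samples of a stage were found for 30 of 41 genes in MII oocytes, 36 and 37 in 2C and 4C, 26 and 26 in 8C and 16C, 31 and 28 in early and compact morulae and 34 in blastocysts. Samples before EGA had 1440058 reads or more and 9 of the 10 later samples had fewer, and the part of depth in these counts was not tested. Summed over all 41 genes, 1416 ± 496 CPM (SD, n = 6) were found before and 2951 ± 535 CPM (SD, n = 10) after EGA, and without FANCI the sums were 1336 ± 464 and 2113 ± 440 CPM. On the deposited scale the sums were 2047 ± 272 before and 3239 ± 597 after EGA. By pathway, the sums before and after EGA were 131 ± 62.6 and 1032 ± 324 CPM for the Fanconi anaemia pathway, 337 ± 152 and 741 ± 196 CPM for base excision and single-strand break repair, and 218 ± 126 and 495 ± 147 CPM for nucleotide excision repair. They were 36.4 ± 20.7 and 139 ± 52.2 CPM for mismatch repair, 343 ± 106 and 283 ± 83.5 CPM for homologous recombination, and 314 ± 135 and 242 ± 58.6 CPM for break signalling. For end joining they were 36.0 ± 14.3 and 19.4 ± 11.9 CPM, and the 2 blastocysts, at 28.5 and 48.4 CPM, lay within the earlier range of 26.1 to 64.6 CPM. None of these sums was tested, and some were mostly a single gene. After EGA FANCI had a mean of 838 of the 1032 CPM of its pathway, LIG3 413 of 741 CPM and MSH6 132 of 139 CPM. A sum weighs each gene by its reads, so that it does not show a change of the pathway's genes in general.

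A wider list of 94 other repair genes was measured for comparison, of which 93 were found and 74 tested. After EGA 15 were higher (20.3%, against 37.9% of all loci) and 30 lower (40.5%, against 32.1%), with a median log2 change of -0.46 (0.23 for all loci). The list fell most at NEIL3, a base excision glycosylase (from 39.6 to 184 CPM before to 0 to 15.5 CPM after EGA; -5.11 ± 0.57, adjusted p = 1.48e-06), and at RAD51C, a recombination gene (from 114 to 217 CPM to 1.24 to 41.1 CPM; -4.54 ± 0.49). It rose most at RNF168, the ubiquitin ligase that follows RNF8 (from 0 to 10.6 CPM to 14.7 to 468 CPM; 4.99 ± 0.62), and at HUS1, a subunit of the checkpoint clamp. HUS1 had no read in any earlier sample and reads in all 10 later ones, at least 52.5-fold higher against a floor of 3 reads over the earlier group. Between MII oocytes and 4C embryos 5 of the 74 rose and 1 fell (6.48% and 2.19% of all loci), between 4C and 8C embryos 11 rose and 15 fell (17.7% and 19.1%), and from there to the blastocyst 2 rose and 3 fell (6.44% and 3.63%).

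Some of these genes overlap another protein-coding gene in the RefSeq table of assembly ARS-UCD2.0, and whether the counting used strand is not given in the sources used here. ERCC1 overlaps POLR1G, FANCA overlaps ZNF276, FANCI overlaps POLG, APEX1 overlaps OSGEP, MSH6 overlaps FBXO11 and RAD54L overlaps LRRC41, all 6 among the genes that rose. Among the others ERCC2 overlaps KLC3, OGG1 overlaps CAMK1, XRCC3 overlaps KLC1 and RAD50 overlaps IL5 and IRF1. Reads of such pairs may not be told apart, and their part in the changes was not tested.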

How the data were processed

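Total RNA was isolated from individual oocytes and embryos, amplified in 2 rounds and sequenced on the SOLiD platform per the labels. The submitters' processing notes name cutadapt, FastQC, TopHat, Cufflinks and HTSeq, and versions, genome build, strand setting and the treatment of reads that map to several places are not given in the sources used here. The deposited values are a signal per locus, which the authors made by dividing read counts by a size factor of each sample. Within each sample 100% of the values above 0 could be written as the smallest one times a whole number (relative tolerance 0.001). These whole numbers were taken as reads, and CPM were computed from them.

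The 41 genes found, the pathways and the wider list were chosen with earlier results of these data known. Loci kept by filterByExpr (9670) were fitted with limma 3.58.1 in R 4.3.3 on log2(deposited value + 1) with 1 mean per stage (16 samples) and a trended empirical Bayes step, and p-values were adjusted by Benjamini-Hochberg with a threshold of 0.05. Alternatives were TMM factors and total reads as scaling, pseudocounts of 0.5 and 5, no filter, the count models of edgeR 4.0.16 and DESeq2 1.42.0, a block for the replicate number, each sample left out, loci of 1 name summed, the compared stages alone, and 2 groups without stages. Counts of genes without overlap, and the highest stages, on the deposited scale were added after seeing the data.

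Genes were named by a rule. Genes past the threshold across EGA whose samples do not overlap in CPM are given in full. For single steps up to 4 genes in each direction are given with both samples of each stage, and of the wider list the 2 largest rises and the 2 largest falls. The remaining genes are given with shorter values or in named groups, and partner pairs were chosen after their values were seen. Sequences of promoters and proteins were not used here. Other tools were Python 3.11.15, numpy 2.4.6, pandas 2.3.3, scipy 1.17.1 and matplotlib 3.10.9.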

Additional observations from a re-analysis of the deposited data

Results flagged for a closer look

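Within the 6 samples before and the 10 samples after EGA, 82 groups of CPM values were searched for a single sample far from the others (Dixon's ratio above its 95% critical value), and 18 had one, each the highest of its group. Chance flags about 1 in 20 groups, and because each group joins several stages, a stage that differs can also give such a sample.

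Before EGA, MDC1 stood out in 4C replicate 2 (34.4 CPM, next 1.39), BARD1 in MII replicate 1 (19.1 CPM, next 7.01), ATR in 2C replicate 1 (18.0 CPM, next 3.55) and XRCC2 in MII replicate 2 (34.6 CPM, next 11.3). RAD52 did so in 4C replicate 2 (18.4 CPM), BRCA1 in 2C replicate 1 (32.6 CPM) and NBN in 2C replicate 2 (6.81 CPM).

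After EGA, the early morulae held 5 of the samples that stood out. EM replicate 2 was highest for BRCA1 (68.1 CPM), BRCA2 (110 CPM) and RNF8 (83.1 CPM), and EM replicate 1 for RAD52 (20.4 CPM) and ERCC4 (16.3 CPM). BL replicate 2 was highest for PRKDC (19.1 CPM from 13 reads, next 4.43), LIG4 (13.2 CPM from 9 reads, next 3.29) and XRCC3 (8.81 CPM from 6 reads). 16C replicate 2, the sample with the fewest reads, was highest for ATR (44.4 CPM, 27 reads) and MDC1 (29.6 CPM, 18 reads), and CM replicate 1 for XPA (430 CPM, next 261).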

How the results depend on the processing

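Of 26 genes called across EGA, 22 kept their call under every alternative, and LIG3, XPC, XPA and MDC1 lost it under some. Over all comparisons, with NEIL3, RAD51C, RNF168 and HUS1 across EGA included, 45 of 72 calls were kept under every alternative, and none reversed. Leaving out 1 sample, the genes higher and lower after EGA ranged from 10 to 13 and from 14 to 16, those from MII to 4C from 1 to 4 and from 0 to 2, those from 4C to 8C from 3 to 7 and from 4 to 8, those from 8C to BL from 0 to 2 and from 0 to 1, and those with an effect of stage from 20 to 26. Fitting the compared stages alone with limma left 0 higher and 0 lower from MII to 4C (3 and 5 at an unadjusted p under 0.05), 2 and 3 from 4C to 8C, and 0 and 0 from 8C to BL (3 and 2 unadjusted), where fewer samples estimate the spread; of all 9670 loci, 176, 1297 and 0 were called in these 3 fits. Total reads gave 6 higher from MII to 4C and 2 from 8C to BL. A pseudocount of 5 gave 3 lower from MII to 4C and 0 higher from 8C to BL (4 unadjusted). EdgeR gave 4 lower from 4C to 8C and 0 higher from 8C to BL (3 unadjusted), and DESeq2 gave 0 of the latter (3 unadjusted). The causes of these other changes were not tested.

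With the replicate number as a block, the counts were 12 higher and 14 lower across EGA, and from 4C to 8C 6 were lower. The block is no pairing: same-numbered samples are different oocytes or embryos, and over 28 pairs of stages their deviations correlated at -0.253 to 0.132 (median 0.00555), 1 of them over 0.1.

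At 10 reads in both samples, 24 genes were found in 4C, 17 in 8C and 21 in BL. The summed level was 2047 before EGA on the deposited scale and 2113 CPM after EGA without FANCI, and without 1 sample it ranged from 1326 to 1572 CPM before and from 2862 to 3028 CPM after EGA. With 607672 to 3379426 reads per sample, a level near 3 reads could not be separated from 0.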
